A study of Mus musculus with 8 samples.

Results

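The genes described here are 10 mouse genes whose human counterparts are linked to the risk of Alzheimer disease or to its microglial biology: Trem2, Tyrobp, Apoe, Plcg2, Inpp5d, Bin1, Cd33, Picalm, Sorl1 and Abca7. They were chosen by symbol, and each of the 10 matched exactly 1 of the 26062 gene IDs in the count table. All 10 passed the filter on low counts, as did 17390 genes in all. RNA was sequenced from microglia, the resident macrophages of the brain, isolated with magnetic beads against CD11b from the lateral geniculate nucleus (LGN) of the thalamus, in which retinal axons end. All mice were wild type male C57BL/6J animals aged 2 to 3 months. There were 2 libraries from uninjured mice, 3 from mice 1 day after crush of both optic nerves and 3 from mice 3 days after it. The labels name no sham operation, so injury was compared with no treatment. Whether each library holds RNA of 1 mouse or of several is not stated, so a p-value here speaks for the variation among libraries, part of which may be technical. RNA was linearly amplified before library construction.

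TREM2 is a lipid-sensing receptor on the surface of microglia that signals through the adaptor TYROBP (DAP12), and apolipoprotein E is among its ligands. TYROBP recruits the kinase SYK, phospholipase C gamma 2 (Plcg2) acts further down, and the phosphatase SHIP1 (Inpp5d) opposes the lipid signal of phosphoinositide 3-kinase. Human CD33 is an inhibitory sialic acid receptor, and the function of the mouse protein was not examined here. Picalm and Bin1 encode proteins that work on clathrin-coated or curved membranes, Sorl1 encodes a sorting receptor of endosomes, and Abca7 encodes a lipid transporter.

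Library totals ran from 12700098 to 17994861 counts. Mitochondrially encoded genes took 21.3 to 22.5% of the counts in uninjured libraries, 13.6 to 21.9% at 1 day and 22.8 to 30.3% at 3 days. The 12 microglia markers had counts in every group, and their summed level was 8837 to 11612 CPM in uninjured libraries, 12448 to 15448 at 1 day and 8753 to 10332 at 3 days (CPM, read counts divided by library size and rescaled by the trimmed mean of M values, TMM). The 15 endothelial markers summed to 1987 to 2193, 954 to 1067 and 1737 to 1784 CPM. The 8 choroid plexus and ependyma markers summed to 521 to 5486, 1.09 to 56.6 and 620 to 3563 CPM, with Folr1 and Otx2 at 0 in all 1 day libraries. In such bulk RNA, fewer cells of a type and less RNA per cell cannot be told apart.

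The sequence just before the start of transcription is shown for the 4 genes with lower levels at 3 days than at 1 day whose promoter was in the RefSeq table, followed by Trem2 and Apoe, which were not called in any comparison. They were read from RefSeq on build GRCm38.p6 and are the 250 bases before the start, 5′ to 3′ on the strand of the gene. The table held 8 of the 10 genes, and Tyrobp and Bin1 are named only. Of several Apoe starts the one nearest the GENCODE 5′ end was taken. Capitals mark the letters GAGGAA or their reverse complement TTCCTC, the core bound by the myeloid factor PU.1, and GGGCGG or its reverse complement CCGCCC, the GC box. The stretches lie at Cd33 at chr7:43533172-43533421 on the minus strand, Inpp5d at chr1:87620062-87620311 on the plus strand, Picalm at chr7:90129963-90130212 on the plus strand, Plcg2 at chr8:117498025-117498274 on the plus strand, Trem2 at chr17:48346151-48346400 on the plus strand and Apoe at chr7:19699189-19699438 on the minus strand.
Cd33: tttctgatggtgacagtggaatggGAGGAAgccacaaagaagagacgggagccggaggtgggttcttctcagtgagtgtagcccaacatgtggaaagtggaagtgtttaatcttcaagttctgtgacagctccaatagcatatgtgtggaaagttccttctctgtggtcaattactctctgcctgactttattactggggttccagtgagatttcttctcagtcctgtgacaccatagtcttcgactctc
Inpp5d: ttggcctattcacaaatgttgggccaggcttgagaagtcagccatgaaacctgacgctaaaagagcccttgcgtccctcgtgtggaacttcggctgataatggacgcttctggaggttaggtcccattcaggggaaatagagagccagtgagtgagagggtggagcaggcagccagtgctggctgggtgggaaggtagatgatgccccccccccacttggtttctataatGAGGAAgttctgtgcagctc
Picalm: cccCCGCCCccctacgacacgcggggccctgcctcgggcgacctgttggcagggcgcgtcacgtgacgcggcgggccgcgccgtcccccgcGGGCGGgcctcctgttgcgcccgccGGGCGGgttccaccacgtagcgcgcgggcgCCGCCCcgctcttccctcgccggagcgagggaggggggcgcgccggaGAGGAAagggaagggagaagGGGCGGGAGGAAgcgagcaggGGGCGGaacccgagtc
Plcg2: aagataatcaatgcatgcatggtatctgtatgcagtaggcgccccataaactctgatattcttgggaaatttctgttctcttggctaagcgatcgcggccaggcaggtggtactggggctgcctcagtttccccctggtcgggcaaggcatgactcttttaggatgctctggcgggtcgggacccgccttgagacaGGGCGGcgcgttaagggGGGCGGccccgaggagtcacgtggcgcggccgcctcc
Trem2: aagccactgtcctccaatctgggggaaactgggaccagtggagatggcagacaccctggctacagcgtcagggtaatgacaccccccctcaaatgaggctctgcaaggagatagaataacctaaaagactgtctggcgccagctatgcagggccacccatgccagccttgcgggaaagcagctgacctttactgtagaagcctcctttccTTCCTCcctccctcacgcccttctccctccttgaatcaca
Apoe: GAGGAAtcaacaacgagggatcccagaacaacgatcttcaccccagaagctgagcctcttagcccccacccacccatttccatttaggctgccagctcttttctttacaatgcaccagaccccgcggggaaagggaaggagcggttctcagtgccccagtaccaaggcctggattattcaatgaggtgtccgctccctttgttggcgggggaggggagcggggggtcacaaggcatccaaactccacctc
The PU.1 core letters were present in 5 of the 8 promoters (Trem2, Apoe, Inpp5d, Cd33 and Picalm) and in 23.3% of 32851 mouse promoters of the same length. In Inpp5d the match began 20 bases before the start, in Trem2 40 bases, in Cd33 226 bases and in Apoe 250 bases. Picalm held 2 such matches and 6 GC boxes, and in 1 place a GC box and a PU.1 core stood directly side by side. The GC box was present in 4 of the 8 (Plcg2, Picalm, Sorl1 and Abca7) and in 32.7% of all promoters. The letters were found in promoters of genes that were called and of genes that were not: of the 4 called genes shown, Cd33 and Inpp5d held the PU.1 core alone, Plcg2 the GC box alone and Picalm both. A match of letters is a description and not a binding site.

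Between 1 day and 3 days after crush, 5 of the 10 genes fell: Bin1, Cd33, Inpp5d, Picalm and Plcg2. In all tested genes 5.75% were called lower in that comparison. By mean level the 5 genes stood between the 91.9th (Plcg2) and 99.6th (Picalm) percentile of tested genes, and that share was not restricted to genes of like level. The fitted level of Bin1 fell by 52.5%, that of Cd33 by 49.1% and that of Plcg2, the smallest of the falls, by 30.4%. None of the 10 was called against uninjured mice at either time, and the receptor Trem2, its adaptor Tyrobp and Apoe were not called in any comparison. Called means that edgeR's quasi-likelihood test passed a false discovery threshold of 0.05, by Benjamini-Hochberg adjustment across the 17390 genes. The 5 falls are relative to TMM scaling. When libraries were instead scaled to the summed counts of 12 microglia markers, a choice made after seeing the data, 0 of these 5 falls was called, and Trem2 and Tyrobp were called higher at 3 days than at 1 day, as were 14.1% of all genes. For the change between the times, values under both scalings are given for each gene.

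**Figure D1:**
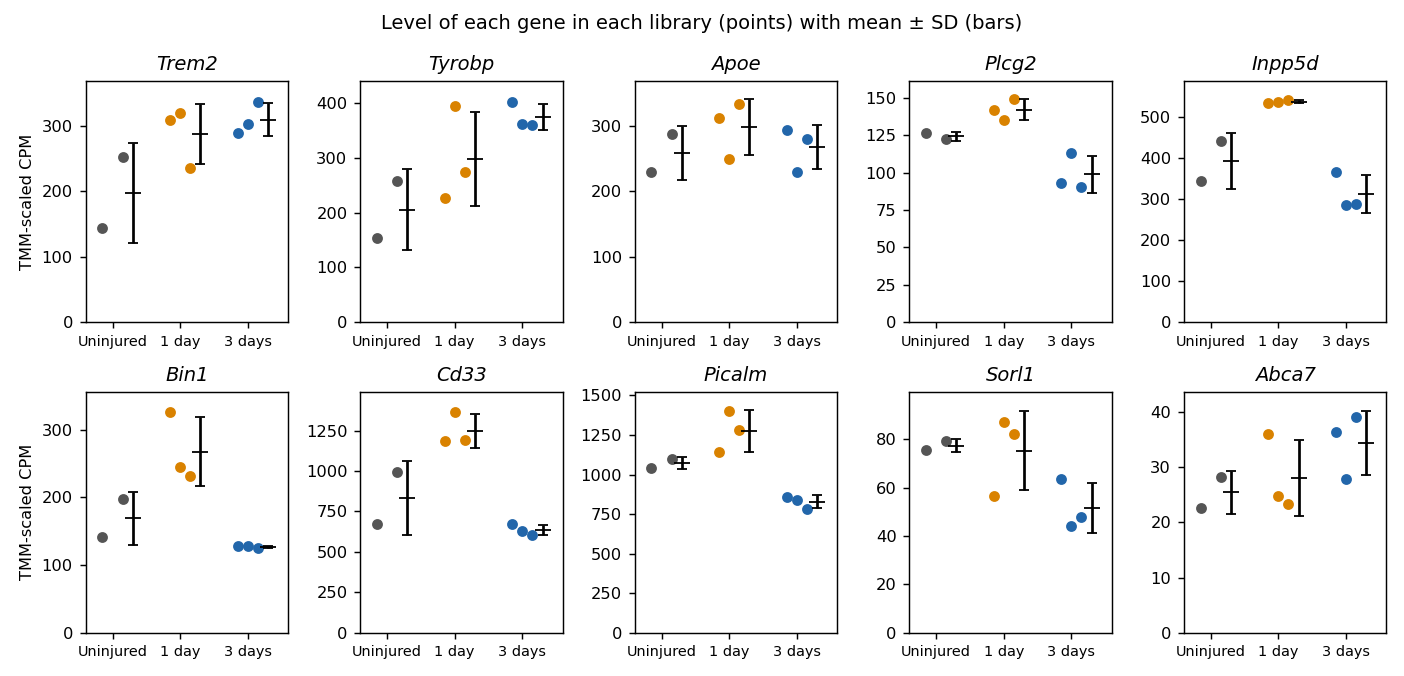
Level of each of the 10 genes in each library, in TMM-scaled CPM on linear axes that start at 0. Points are libraries, and bars beside them are the mean ± SD of each group (n = 2, 3 and 3). For Plcg2, Inpp5d, Bin1, Cd33 and Picalm the 3 libraries at 3 days lie below the 3 at 1 day.

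Trem2, the receptor, stood at 143 and 252 CPM in uninjured libraries, 309, 320.1 and 236 after 1 day and 289, 303 and 337 after 3 days. The uninjured pair was far apart, and its higher library overlapped with the 1 day libraries while all 3 libraries at 3 days lay above it. The log2 fold change was 0.54 at 1 day (SE 0.22, edgeR adjusted p = 0.25) and 0.65 at 3 days (SE 0.22, adjusted p = 0.136), and the 95% interval at 3 days ran from 0.18 to 1.12. Trem2 was called higher at 3 days by limma-voom with sample weights, but not by limma-voom without them or by DESeq2. Without the second uninjured library, Trem2 was called higher at both times. Between the times it differed by 0.10 (SE 0.19, adjusted p = 0.791). Scaled to the microglia markers, Trem2 was called higher at 3 days than at 1 day (log2 fold change 0.64, adjusted p = 0.0291), where the median of all genes was 0.55 and 14.1% of them were called higher.

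Tyrobp, which encodes the signalling adaptor that TREM2 needs to reach the cell surface stably, stood at 153 and 258 CPM in uninjured libraries, 226, 394 and 275 after 1 day and 402, 362 and 359 after 3 days. Every library at 3 days lay above both uninjured libraries, and the 1 day libraries spread across the range. The log2 fold change against uninjured mice was 0.87 at 3 days (SE 0.24, 95% interval 0.35 to 1.38, edgeR adjusted p = 0.0663), which missed the threshold. It was called in 10 of 19 other ways of processing, DESeq2 and limma-voom among them. With edgeR it was not called under relative log expression, library size or upper quartile scaling, nor without mitochondrially encoded genes. Neither was it called when control replicate 1, the third 1 day library or any single 3 day library was left out. At 1 day the value was 0.54 (SE 0.24, adjusted p = 0.307), and between the times 0.33 (SE 0.21, adjusted p = 0.353). Scaled to the microglia markers, Tyrobp was called higher at 3 days than at 1 day (0.87, adjusted p = 0.011), as were 14.1% of all genes, and than in uninjured mice (0.96, adjusted p = 0.0423), where 2.11% of all genes were called higher.

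Apoe, the lipid carrier and TREM2 ligand, stood at 229 and 287 CPM in uninjured libraries, 312, 249.7 and 333 after 1 day and 294, 229 and 280.0 after 3 days. The 3 groups overlapped. The log2 fold changes were 0.21 (SE 0.18, edgeR adjusted p = 0.68) at 1 day, 0.053 (SE 0.18, adjusted p = 0.941) at 3 days and −0.15 (SE 0.16, adjusted p = 0.596) between the times. The 95% interval at 3 days against uninjured mice, −0.33 to 0.44, does not include a doubling of its level. Its sign between the times turned to 0.35 (adjusted p = 0.253) when scaled to the microglia markers.

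**Figure D2:**
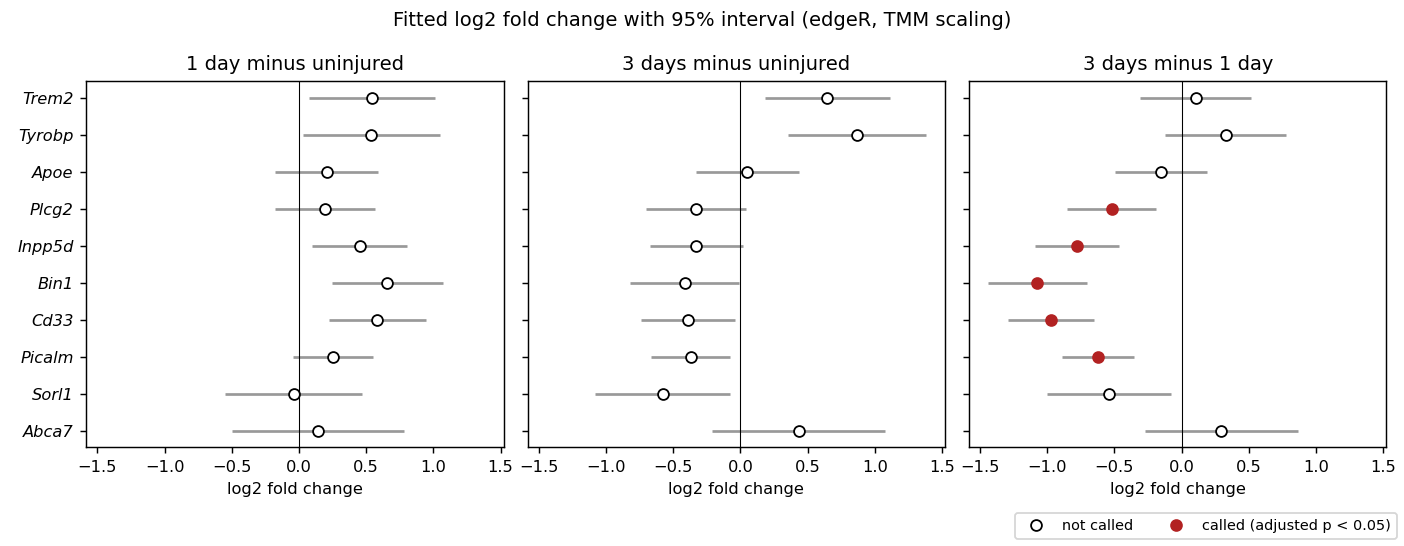
Fitted log2 fold change of each gene (horizontal axis) in the 3 comparisons, with its 95% interval as a line. Filled points are called at an adjusted p under 0.05 and open points are not. The 5 filled points are all in the panel of 3 days minus 1 day and all lie below 0.

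Inpp5d, the lipid phosphatase SHIP1, stood at 344 and 441 CPM in uninjured libraries, 534, 537 and 541 after 1 day and 365, 285 and 288 after 3 days. The 1 day libraries were almost equal and lay above all 5 others. Inpp5d fell by 0.78 on the log2 scale between the times (SE 0.15, 95% interval −1.09 to −0.47, edgeR adjusted p = 0.00374). Against uninjured mice it differed by 0.45 at 1 day (SE 0.16, adjusted p = 0.202) and −0.33 at 3 days (SE 0.16, adjusted p = 0.349). With microglia marker scaling the change between the times was −0.26 (adjusted p = 0.324).

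Plcg2, the phospholipase downstream of SYK, stood at 126 and 122 CPM in uninjured libraries, 142, 135 and 149 after 1 day and 93.2, 113 and 90.5 after 3 days. The 3 groups did not overlap, with 1 day highest and 3 days lowest. Plcg2 fell by 0.52 on the log2 scale between the times (SE 0.16, 95% interval −0.86 to −0.19, edgeR adjusted p = 0.0462). This call lay near the threshold: it was kept in 7 of 19 other ways of processing, and of the 8 fits that left out 1 library only those without day 1 replicate 2 or day 3 replicate 2 kept it. Against uninjured mice the values were 0.19 (SE 0.18, adjusted p = 0.699) at 1 day and −0.33 (SE 0.17, adjusted p = 0.395) at 3 days. Scaled to the microglia markers the change between the times was 0.0089 (adjusted p = 0.986).

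Cd33, the mouse counterpart of human CD33, stood at 672 and 995 CPM in uninjured libraries, 1185, 1368 and 1193 after 1 day and 671, 631 and 605 after 3 days. All 1 day libraries lay above the uninjured pair and all 3 day libraries below it, the closest by about 1 CPM. Cd33 fell by 0.97 on the log2 scale between the times (SE 0.15, 95% interval −1.29 to −0.65, edgeR adjusted p = 0.00101). Against uninjured mice it differed by 0.58 at 1 day (SE 0.17, adjusted p = 0.101) and −0.39 at 3 days (SE 0.16, adjusted p = 0.251), and the 1 day difference was called by limma-voom and without the second uninjured library. Microglia marker scaling gave −0.44 between the times (adjusted p = 0.0763).

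Bin1, a membrane-curving BAR domain protein, had its highest library at 1 day. It stood at 142 and 197 CPM in uninjured libraries, 326, 245 and 231 after 1 day and 128, 128 and 125 after 3 days. The 3 libraries at 3 days were nearly equal and lay under both uninjured libraries. Bin1 fell by 1.07 on the log2 scale between the times (SE 0.17, 95% interval −1.44 to −0.71, edgeR adjusted p = 0.0013). Against uninjured mice the values were 0.66 at 1 day (SE 0.19, adjusted p = 0.106) and −0.42 at 3 days (SE 0.19, adjusted p = 0.297). Microglia marker scaling gave −0.54 between the times (adjusted p = 0.071). In the annotation 256 of its 4117 exonic bases are shared with A830052D11Rik on the opposite strand, and the strand setting of the counting is not given, so those reads cannot be assigned.

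Picalm, a clathrin assembly protein, had the highest single read count of the 10 genes, 21331 in a library. It stood at 1044 and 1099 CPM in uninjured libraries, 1142, 1402 and 1283 after 1 day and 859.9, 841 and 784 after 3 days. The order of the groups was complete, 1 day above uninjured above 3 days. Picalm fell by 0.62 on the log2 scale between the times (SE 0.12, 95% interval −0.89 to −0.36, edgeR adjusted p = 0.00558). Against uninjured mice the values were 0.25 (SE 0.14, adjusted p = 0.449) at 1 day and −0.37 (SE 0.14, adjusted p = 0.182) at 3 days. The 3 day difference was called only by limma-voom with sample weights (adjusted p = 0.0195). Scaled to the microglia markers the change between the times was −0.094 (adjusted p = 0.759).

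Sorl1, the endosomal sorting receptor, stood at 75.4 and 79.1 CPM in uninjured libraries, 56.7, 87.0 and 81.9 after 1 day and 63.4, 43.9 and 47.8 after 3 days. The 3 day libraries lay below the uninjured pair, but the first 1 day library lay among them. The change was −0.58 at 3 days against uninjured mice (SE 0.24, 95% interval −1.09 to −0.073, edgeR adjusted p = 0.233) and −0.54 between the times (SE 0.21, adjusted p = 0.124), which became −0.029 (adjusted p = 0.954) with microglia marker scaling. In the annotation it shares 185 of 11321 exonic bases with Gm16214 on the opposite strand.

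Abca7, the lipid transporter, had the fewest reads, 309 to 555 in a library. It stood at 22.7 and 28.2 CPM in uninjured libraries, 36.0, 24.8 and 23.3 after 1 day and 36.3, 27.8 and 39.0 after 3 days, and the groups overlapped in every comparison. The log2 fold changes were 0.14 (SE 0.30, edgeR adjusted p = 0.903), 0.43 (SE 0.30, adjusted p = 0.557) and 0.30 (SE 0.27, adjusted p = 0.533), in the order 1 day, 3 days, 3 days against 1 day. Its interval at 3 days ran from −0.21 to 1.08. The change between the times was 0.81 (adjusted p = 0.0616) with microglia marker scaling.

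Over the 10 genes the median log2 fold change was 0.35 for 1 day and −0.33 for 3 days against uninjured mice and −0.53 between the times, where the medians of all tested genes were 0.061, −0.0016 and 0.022. At 1 day 0 of the 10 were called, against 1.77% of all genes, with 5 at an unadjusted p under 0.05 by the same edgeR test (14.8% of all genes), 0 called by DESeq2 and 1 by limma-voom. At 3 days 0 were called against a background of 3.47%, with 6 at an unadjusted p under 0.05 (15.8% of all genes) and 1 called by DESeq2 and by limma-voom. Between the times 5 were called against a background of 11.0% in either direction, with 6 at an unadjusted p under 0.05 (26.2% of all genes), 5 called by DESeq2 and 4 by limma-voom. The 2 comparisons with uninjured mice share those libraries, and the comparison between times shares its libraries with both. Groups did not overlap for 5, 7 and 5 of the 10 genes in these comparisons, where 29.3%, 39.4% and 29.8% of all genes did not overlap. The calls of Inpp5d, Bin1, Cd33 and Picalm between the times held in each of those 19 ways of processing, single libraries left out in turn among them, and were lost with microglia marker scaling.

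**Figure D3:**
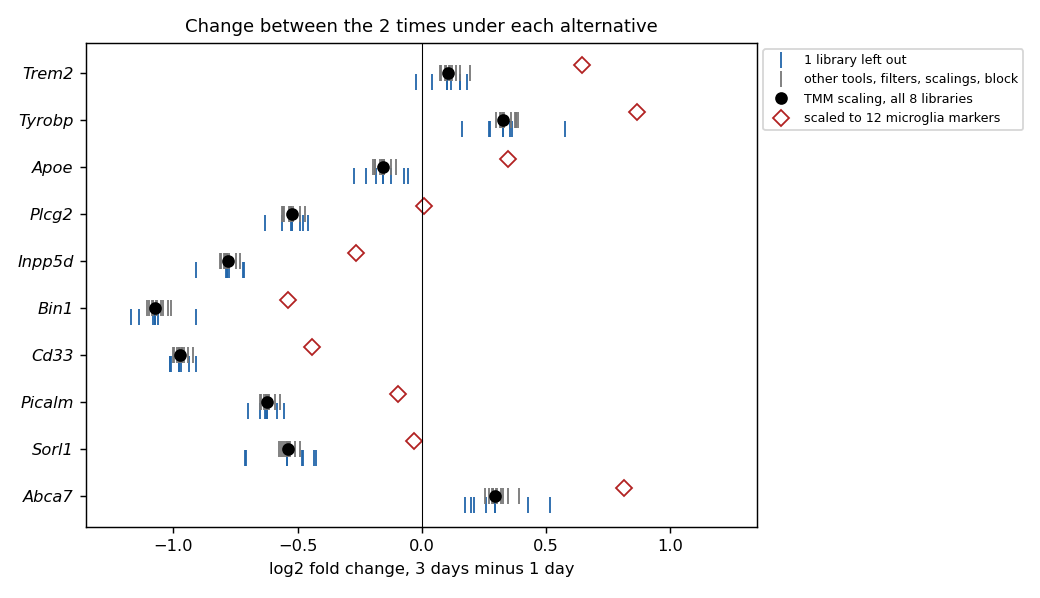
Log2 fold change of each gene between 3 days and 1 day (horizontal axis) under TMM scaling with all 8 libraries (filled circles), with 1 library left out (blue ticks), under other tools, filters and scalings (grey ticks) and when scaled to 12 microglia markers (open diamonds). The diamonds lie to the right of the circles for all 10 genes, and those of Plcg2 and Apoe are above 0 where the circles are below it.

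Scaling to the microglia markers moved the median log2 fold change of all genes to −0.41, 0.044 and 0.55 in the 3 comparisons, and between the times 14.1% of all genes were then called higher and 0.581% lower. Of the 12 markers themselves, 10 had a log2 fold change below 0 between the times under TMM scaling, with a median of −0.46, and their summed levels at the 2 times did not overlap. Itgam, P2ry12, Siglech, Tmem119 and Sall1 fell and 0 markers rose, where 5.75% of all genes were called lower and 5.24% higher. Csf1r, the most abundant, differed by −0.53 (SE 0.18, edgeR adjusted p = 0.0756). Olfml3, among the 2 markers above 0, differed by 0.062 (SE 0.17, edgeR adjusted p = 0.873). Itgam, which encodes the CD11b used to isolate the cells, went from 1282 ± 130 CPM at 1 day (SD, n = 3) to 298 ± 5.07 at 3 days (SD, n = 3). In the annotation 3450 of its 5024 exonic bases are shared with Gm49368 on the same strand, so reads may have been lost or split between them. The part of these markers' own changes in the scaled values was not tested.

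A ratio of 2 genes within a library does not depend on how libraries are scaled. Reads of each gene per read of Trem2 were therefore compared, a reference chosen after the levels had been seen. Cd33 gave 4.69 and 3.95 reads per Trem2 read in uninjured libraries, 3.84, 4.27 and 5.06 after 1 day, and 2.32, 2.08 and 1.80 after 3 days. The ratio at 3 days was 0.471 times that at 1 day and 0.478 times that in uninjured libraries (geometric means), and the libraries at 3 days lay below all 5 others. Bin1 gave 0.988 and 0.781 in uninjured libraries, 1.05, 0.765 and 0.979 at 1 day and 0.441, 0.424 and 0.371 at 3 days. Inpp5d gave 2.40 and 1.75, then 1.73, 1.68 and 2.30, and then 1.26, 0.940 and 0.854. For these 3 genes the uninjured and 1 day ranges overlapped.

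Picalm gave 4.36 to 7.28 reads per Trem2 read in uninjured libraries, 3.70 to 5.44 at 1 day and 2.33 to 2.97 at 3 days. Plcg2 gave 0.486 to 0.880, 0.422 to 0.633 and 0.269 to 0.374. Between the times the ratios of Plcg2, Inpp5d, Bin1, Cd33 and Picalm did not overlap, and each had a two-sided exact permutation p of 0.1, the smallest that 3 libraries against 3 can give (0.18 after Benjamini-Hochberg adjustment over 9 ratios). Of the ratios of all other tested genes to Trem2, 14.3% lay wholly lower at 3 days than at 1 day. Against uninjured mice the ratios of these 5 genes and of Apoe and Sorl1 did not overlap at 3 days, again at the smallest possible exact permutation p of 0.1 (adjusted 0.129), and 41.3% of all genes had ratios wholly lower than in uninjured mice. At 1 day all 9 ratios overlapped with those of uninjured mice, and 27.2% of all genes had ratios that did not. Tyrobp gave 1.02 to 1.07, 0.732 to 1.23 and 1.07 to 1.39 reads per Trem2 read. These designs cannot reach an exact p under 0.1, so the ratios carry no call.

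**Figure D4:**
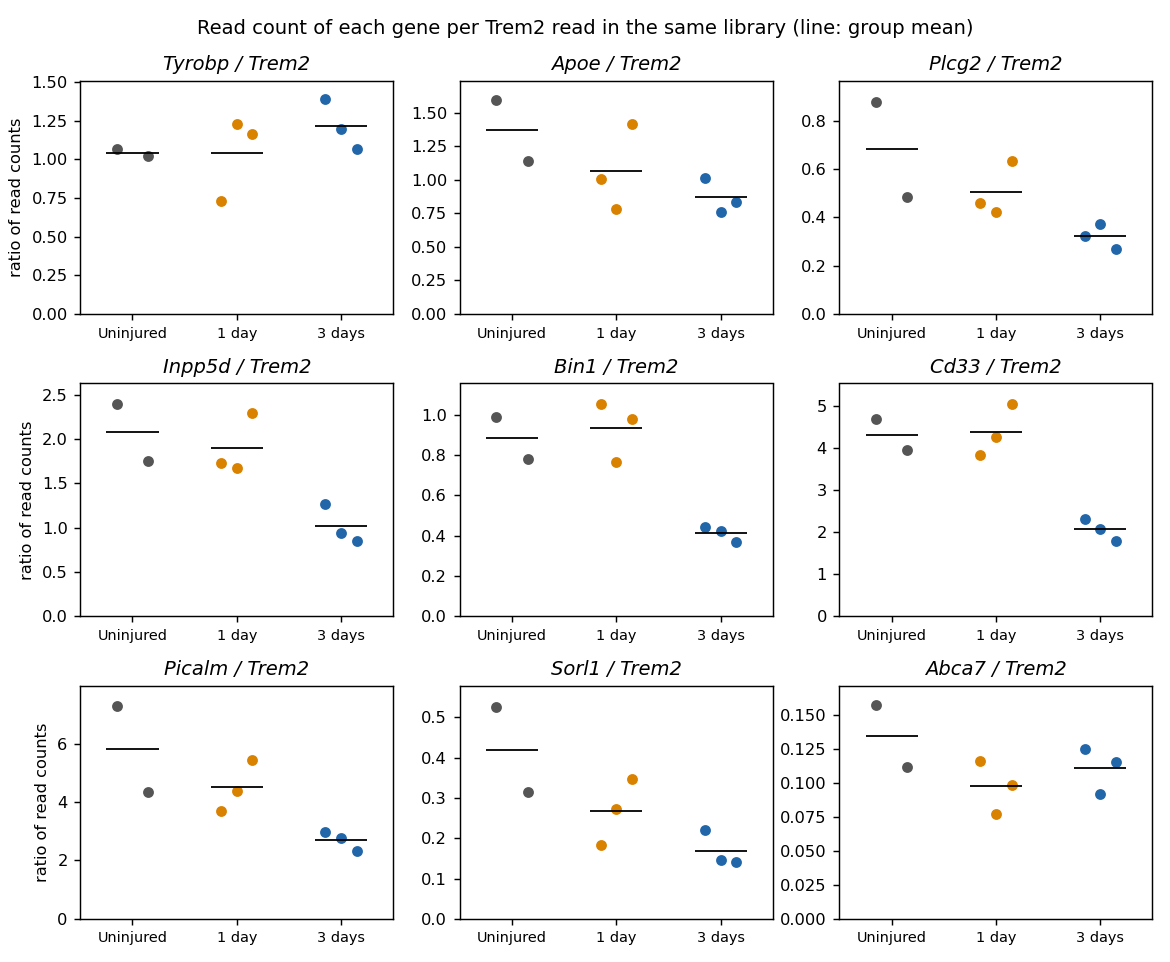
Read count of each gene divided by that of Trem2 in the same library (vertical axes, linear from 0), with points for libraries and lines for group means (n = 2, 3 and 3). The 3 points at 3 days lie below those of both other groups for Plcg2, Inpp5d, Bin1, Cd33 and Picalm, and overlap with them for Tyrobp and Abca7.

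Levels of different genes were compared per kilobase of the longest coding transcript. By mean, Tyrobp was first in each group, at 364 ± 131 CPM per kilobase in uninjured libraries (SD, n = 2), 529 ± 153 at 1 day and 664 ± 41.9 at 3 days (SD, n = 3 each). Its spread in uninjured libraries met that of Trem2, although both its values there (271 and 457) lay above both of Trem2 (132 and 232). In uninjured libraries Apoe (183 ± 29.4) and Trem2 (182 ± 70.6) came next and did not differ beyond their spread, followed by Cd33 (145 ± 39.8) and Picalm (130 ± 4.74), whose spreads also met. Inpp5d (79.6 ± 13.9), Bin1 (70.4 ± 16.2) and Plcg2 (28.9 ± 0.642) were lower, and Sorl1 (7.21 ± 0.243) and Abca7 (3.80 ± 0.589) were lowest. At 1 day Trem2 (265 ± 42.1), Cd33 (218 ± 18.1) and Apoe (212 ± 30.6) came next, and their spreads met. Picalm (155 ± 15.9), Bin1 (111 ± 21.3), Inpp5d (109 ± 0.752), Plcg2 (33.1 ± 1.61), Sorl1 (7.02 ± 1.51) and Abca7 (4.18 ± 1.04) followed. At 3 days Trem2 (285 ± 22.7) stood above Apoe (190 ± 24.0), and Cd33 (111 ± 5.80) and Picalm (101 ± 4.79) below both. Inpp5d (63.3 ± 9.25), Bin1 (52.8 ± 0.766) and Plcg2 (23.0 ± 2.91) followed, and Abca7 (5.14 ± 0.872) and Sorl1 (4.83 ± 0.964) did not differ beyond their spread. RNA was amplified before sequencing, which can favour one end of a transcript, so this order is approximate. When all annotated exons were used in place of 1 transcript, Trem2 had 4946 bases in place of 1088 and a level of 40.0 CPM per kilobase in uninjured libraries, and its place in the order rests on that choice.

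Across the 8 libraries, which share their groups, Trem2 and Tyrobp had a Pearson correlation of log2 levels of 0.83, and Cd33 had 0.97 with Inpp5d, 0.94 with Bin1 and 0.93 with Picalm. Trem2 and Cd33 had 0.15. Among 9477 other genes averaging 5 CPM or more, the 3 with the course most like that of Trem2 were Rplp1 (0.97), Plod1 (0.95) and Rac2 (0.95). For Apoe they were Cgrrf1 (0.97), Ubac2 (0.94) and Supt5 (0.91). For the genes that fell, they were Stk10, Srsf3 and Runx1 for Plcg2 (0.98 to 0.99), Soga1, Kif21b and Lag3 for Inpp5d (each 0.99), Nav3, Ighm and Diablo for Bin1 (each 0.99), Fosl1, Wnk1 and Irf5 for Cd33 (each 0.98) and Ralgps1, Mat2a and H2-K2 for Picalm (each 0.99). The correlations are descriptions over 8 libraries in 3 groups.

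Beyond the 10 genes, 28 partners of TREM2 and TYROBP signalling were tested. Between the times 3 were called lower and 0 higher, with 8 at an unadjusted p under 0.05 and a median log2 fold change of −0.23. Over all genes 1.77% were called at 1 day and 3.47% at 3 days against uninjured mice. Between the times 5.75% of all genes were called lower, 5.24% higher and 26.2% had an unadjusted p under 0.05. Vav2, a guanine nucleotide exchange factor, fell from 112 ± 15.1 to 45.7 ± 9.86 CPM (SD, n = 3 each), by 1.29 on the log2 scale (SE 0.20, edgeR adjusted p = 0.00108). Pik3r1, a regulatory subunit of phosphoinositide 3-kinase, fell by 0.71 (SE 0.12, adjusted p = 0.00234), and Lcp2, the adaptor SLP-76, by 0.79 (SE 0.14, adjusted p = 0.0024). These 3 calls held with each library left out, and with microglia marker scaling that of Vav2 was kept (adjusted p = 0.0414) and those of Pik3r1 (adjusted p = 0.525) and Lcp2 (adjusted p = 0.335) were lost. Lcp2 had been the only partner called higher at 1 day (370 ± 36.0 CPM in uninjured libraries, n = 2, to 638 ± 85.4, n = 3, adjusted p = 0.0211), a call that needed control replicate 1, the second 1 day library and the third 3 day library and was lost with microglia marker scaling (adjusted p = 0.447), and Pik3r1 (0.40, adjusted p = 0.181) and Fgr (1.08, adjusted p = 0.19) had the next smallest p. At 3 days against uninjured mice Pik3cb, a catalytic subunit of the kinase, was called higher (0.75, SE 0.17, adjusted p = 0.0279), which was lost without either uninjured library and without day 3 replicate 1 or 3 and with microglia marker scaling (adjusted p = 0.0661), and Vav2 (−0.79, adjusted p = 0.0662) and Akt1 (0.94, adjusted p = 0.102) were not called.

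Of 34 other genes linked to Alzheimer disease, 2 were called higher and 6 lower between the times (median −0.18), where 5.24% of all genes were called higher and 5.75% lower, a count of calls that ranged from 1 to 7 as single libraries were left out. Mef2c, a transcription factor of microglia and neurons, fell from 585 ± 20.0 to 379 ± 26.5 CPM (SD, n = 3 each, log2 fold change −0.63, SE 0.12, edgeR adjusted p = 0.00541), a call kept whichever library was left out but lost with microglia marker scaling (adjusted p = 0.764). Rin3, which binds BIN1 and acts on RAB5, fell by 1.13 (SE 0.25, adjusted p = 0.00917), and the secreted protease gene Adamts1 by 0.75 (SE 0.16, adjusted p = 0.00967); both calls were lost without day 3 replicate 3 and with microglia marker scaling (adjusted p = 0.161 and 0.577). At 3 days against uninjured mice Grn, which encodes the lysosomal protein progranulin, was higher (677 ± 126 CPM, n = 2, to 1045 ± 31.8, n = 3, log2 fold change 0.63, SE 0.15, adjusted p = 0.0309) and Adamts1 lower (−0.70, SE 0.18, adjusted p = 0.0475), each call lost in 4 of the 8 fits that left out a library, among them that without control replicate 1, and with microglia marker scaling (adjusted p = 0.0628 and 0.287). Fermt2 was not called there (−0.78, adjusted p = 0.179).

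At 1 day 1 of these 34 genes was called, where 1.77% of all genes were. It was Clu, which encodes the apolipoprotein clusterin. Clu stood at 73.0 ± 46.2 CPM in uninjured libraries (n = 2) and 22.3 ± 2.84 at 1 day (n = 3), a log2 fold change of −1.71 (SE 0.38, edgeR adjusted p = 0.0341). The call was lost in 5 of the 8 fits with a library left out. Between the times Clu was called higher (adjusted p = 0.0192), a call lost without day 1 replicate 1 or day 3 replicate 1 or 3. Choroid plexus and endothelial markers were also low at 1 day in the sums given above. The 12 astrocyte markers summed to 137 to 176 CPM in uninjured libraries, 95.8 to 157 at 1 day and 81.8 to 91.7 at 3 days. The part of these cells in the changes of Clu was not tested. Fermt2 (−1.05, adjusted p = 0.0826) and Spi1, the gene of PU.1 itself (0.72, SE 0.20, adjusted p = 0.0865), were not called at 1 day.

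Among 24 tested genes of ApoE lipidation, receptors and regulators, 4 were called higher and 1 lower between the times (median 0.035), where 5.24% of all genes were called higher and 5.75% lower. Lpl, the lipoprotein lipase, stood at 48.4 ± 5.40 CPM in uninjured libraries (n = 2), 65.6 ± 36.1 after 1 day and 1123 ± 203 after 3 days (SD, n = 3 each). It rose by 4.54 against uninjured mice (SE 0.42, edgeR adjusted p = 0.000166) and by 4.10 between the times (SE 0.34, adjusted p = 4.51e-05), with each library left out and under microglia marker scaling, while Apoe itself was not called. Lipa, the lysosomal acid lipase, rose by 0.71 between the times (SE 0.15, adjusted p = 0.00682) and Mylip, a ligase that degrades lipoprotein receptors, fell by 0.95 (SE 0.15, adjusted p = 0.00125). Both calls held with each library left out, and that of Mylip was lost under microglia marker scaling (adjusted p = 0.159). Lrp1, an ApoE receptor, was called higher at 3 days than in uninjured mice (0.59, SE 0.15, adjusted p = 0.0475), in 2 of the 8 fits with a library left out and not with microglia marker scaling (adjusted p = 0.0978). Lrpap1 (0.84, adjusted p = 0.0938) was not called there. At 1 day 1 of the 24 genes was called, where 1.77% of all genes were: Clu, lower as given above. Mylip (0.69, adjusted p = 0.0555) and Lrp8 (−2.02, adjusted p = 0.102) were not called at 1 day. Clu is also among the 34 genes linked to Alzheimer disease. It is counted in both lists, at 1 day and among the genes called higher between the times.

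Of 32 genes of clathrin coats, BAR domain proteins and retromer sorting, the machinery of Picalm, Bin1 and Sorl1, 2 were called lower and 0 higher between the times, with 10 at an unadjusted p under 0.05 and a median of −0.17. The shares over all genes were 5.75% called lower and 26.2% at an unadjusted p under 0.05. Bin2, a BAR domain gene of blood-lineage cells, stood at 266 ± 87.9 CPM in uninjured libraries (n = 2), 623 ± 91.1 after 1 day and 337 ± 16.3 after 3 days (SD, n = 3 each). It rose by 1.23 at 1 day (SE 0.20, edgeR adjusted p = 0.00669), a call lost without control replicate 1, and fell by 0.88 between the times (SE 0.17, adjusted p = 0.00505), a call kept whichever library was left out but lost with microglia marker scaling (adjusted p = 0.186). Cltc, the clathrin heavy chain, fell by 0.43 (SE 0.12, adjusted p = 0.0395), a call kept in 3 of those 8 fits and lost with microglia marker scaling (adjusted p = 0.736), and Vps26a was not called (−0.60, adjusted p = 0.0534). At 1 day Sh3gl1 (1.12, adjusted p = 0.127) and Hip1 (−0.84, adjusted p = 0.13) were not called. At 3 days against uninjured mice 0 of the 32 were called by edgeR, with 4 at an unadjusted p under 0.05. Over all genes 3.47% were called there and 15.8% had an unadjusted p under 0.05. Ap2s1 (1.81, edgeR adjusted p = 0.0612), Snx2 (−0.76, adjusted p = 0.107) and Ap2m1 (0.73, adjusted p = 0.175) had the smallest p.

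Markers of other cells moved between the times as well. Over all tested genes 5.24% were called higher, 5.75% lower, and 26.2% had an unadjusted p under 0.05 by edgeR. Of 15 endothelial markers 10 rose and 0 fell, 7 to 9 being called as libraries were left out in turn, and of 11 mural markers 4 rose, a count of 1 without day 3 replicate 3. Of 8 choroid plexus and ependyma markers 5 rose, a count of 2 without day 1 replicate 1 or 3 and of 0 by limma-voom. Of 12 border macrophage markers 1 fell (summed level 828 to 1112 CPM at 1 day and 673 to 798 at 3 days), of 6 monocyte markers 1 (126 to 148 and 62.7 to 81.2 CPM) and of 8 neutrophil markers 2 (382 to 553 and 176 to 216 CPM). Of 12 astrocyte markers 2 rose and 1 fell, with 0 called without day 3 replicate 1. Of 9 oligodendrocyte, 7 neuron and 2 lymphocyte markers 0 were called by edgeR, DESeq2 or limma-voom, with 2, 0 and 0 at an unadjusted p under 0.05, and the lymphocyte markers summed to at most 8.43 CPM with Cd3d at 0 at 1 day. The marker that fell was F13a1 in both the border macrophage and the monocyte list, so 1 gene is counted in both. F13a1 (95.1 ± 13.6 CPM at 1 day, 45.3 ± 8.59 at 3 days, SD, n = 3 each) made up most of the monocyte sum. The neutrophil markers that fell were Csf3r and S100a8, and Csf3r (368 ± 50.5 and 167 ± 25.9 CPM) made up most of that sum. The 3 sums were lower at 3 days, as were the 5 genes that fell. The monocyte and neutrophil sums rest largely on single genes. The border macrophage sum was spread over more genes, with Mrc1 (399 ± 113 and 254 ± 42.6 CPM) and Stab1 (274 ± 42.5 and 261 ± 18.6 CPM) the largest. Of its 12 markers, 2 had a log2 fold change above 0 between the times, with a median of −0.30. The part of these cells in the fall of the 5 genes was not tested.

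**Figure D5:**
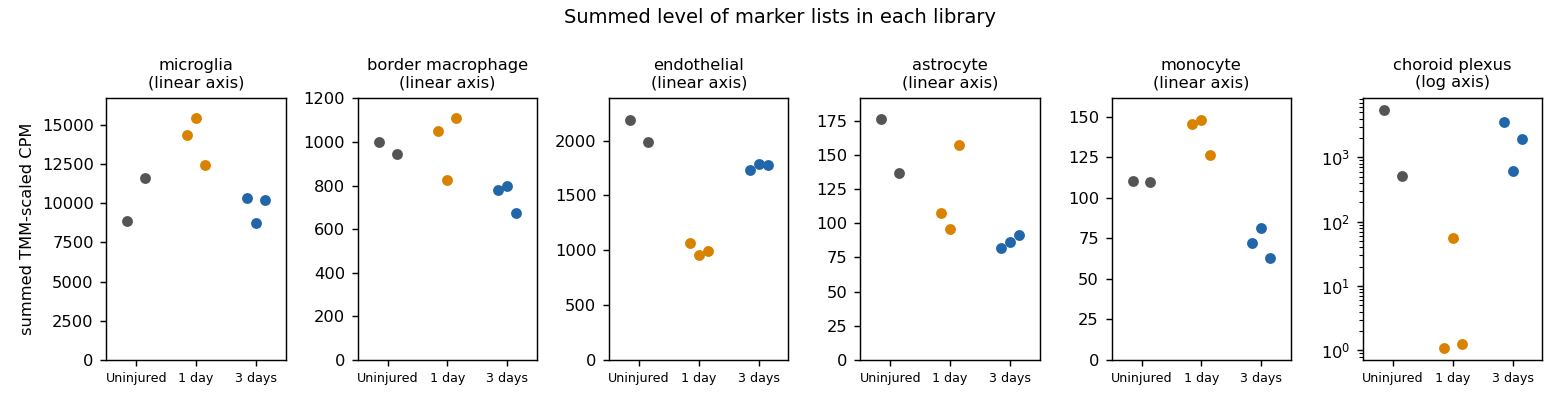
Summed TMM-scaled CPM of 6 marker lists in each library (points), on linear axes from 0 except the choroid plexus panel, whose axis is logarithmic. Microglia marker sums are highest at 1 day (12448 to 15448 CPM), where endothelial and choroid plexus sums are lowest.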

How the data were processed

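Per the labels, RNA of CD11b-selected cells was purified with a small-scale kit and underwent linear amplification. The authors deposited raw counts of reads for each Ensembl gene and library. FastQC, STAR, HTSeq and build mm9 appear in the submitters' processing notes; versions, gene models and strand handling are not given in the sources at hand. All 8 columns were matched to samples by name. Gene symbols, transcript lengths and overlaps came from GENCODE M21, with 25925 of 26062 IDs matched. The promoter sequences came from RefSeq on GRCm38.p6, another build, and no coordinates of the count table were used.

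Tests used edgeR 4.0.16 (R 4.3.3). After filterByExpr (17390 genes kept) and TMM scaling, 1 robust quasi-likelihood model with a mean for each group was fitted to the 8 libraries together, so that the uninjured pair shares its estimate of spread with the others. The standard error is the log2 fold change divided by the square root of F. The threshold was 0.05 on the p adjusted across all genes by Benjamini-Hochberg. Levels are TMM-scaled CPM computed from the counts. Libraries of a group differed beyond sampling noise, with chi-square values of 31.4 to 64.8 per degree of freedom, and each is 1 replicate. Between 309 and 21331 reads stood behind each value of the 10 genes, so the spread between libraries, not counting error, limits precision. The procedure was also run on simulated counts with known changes, and how many of them it recovered is not reported here.

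The 10 genes, the 4 related lists and the 11 marker lists were chosen with earlier results of these data known. Named are the 10 genes, the up to 3 genes of each related list with the smallest p in each comparison, and for Trem2, Apoe and called genes the 3 genes with the highest correlation of log2 CPM (prior count 2, mean of at least 5 CPM). Microglia markers, Folr1, Otx2, Cd3d, F13a1, Csf3r and S100a8 are named from the marker lists after their values were seen. Alternatives were other scalings and filters, DESeq2 1.42.0, limma-voom (limma 3.58.1) with and without sample weights, a fit to the libraries of 2 groups, a replicate block and each library left out. Scaling to microglia markers and ratios to Trem2 were added after seeing the data. Apoc4 was not found in the count table by symbol.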

Additional observations from a re-analysis of the deposited data

Results flagged for a closer look

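For 5 genes the change since no injury differed between the 2 times after crush, as tested by edgeR's contrast of 3 days against 1 day. The log2 differences were −0.52 for Plcg2, −0.78 for Inpp5d, −1.07 for Bin1, −0.97 for Cd33 and −0.62 for Picalm, with 3 of 3 libraries at 3 days below 3 of 3 at 1 day for each. All 5 had a positive fitted change at 1 day and a negative one at 3 days against the same 2 uninjured libraries, and neither change was called for any of them. Scaled to microglia markers, the difference was not called for any of the 5, and it turned to 0.0089 for Plcg2.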

How the results depend on the processing

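Of the 10 genes, 0 were called at 1 day, but 1 by limma-voom and 1 with its sample weights (Cd33), and 0 to 2 with single libraries left out. At 3 days 1 was called (Tyrobp) without the filter, with the filter of 5 CPM, by DESeq2, by limma-voom, with the replicate block, in the fit to 2 groups and with microglia marker scaling, 3 with sample weights, and 0 to 2 with libraries left out. Between the times the count was 4 to 5 with libraries left out and 2 with microglia marker scaling. That scaling, added after seeing the data, reversed the sign at 1 day for Apoe (−0.23), Plcg2 (−0.28), Inpp5d (−0.00075), Picalm (−0.22) and Abca7 (−0.32), and between the times for Apoe (0.35) and Plcg2 (0.0089). The 3 genes called at 3 days with sample weights were Tyrobp and Trem2, both higher, and Picalm, lower.

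Of all genes 308, 604 and 1912 were called in the 3 comparisons, against 824, 1295 and 2872 by DESeq2 and 39 to 368, 108 to 982 and 747 to 2362 with libraries left out, the lowest 2 times without control replicate 1 and then without the third 3 day library. The fit to 2 groups called 110 at 1 day and 1345 at 3 days, sample weights 1576 at 3 days and microglia marker scaling 383 at 3 days. Of the calls, 34.4%, 71.7% and 47.7% were higher, but 16.5% at 1 day and 56.5% at 3 days by library size, 56.1% at 3 days by upper quartile, and 2.92%, 95.8% and 96.0% with microglia marker scaling.

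Small uncalled changes changed sign with single libraries left out: at 1 day Sorl1 (−0.20 to 0.13) and Abca7 (−0.081 to 0.31), at 3 days Apoe (−0.11 to 0.23), and between the times Trem2 (−0.025 to 0.18). Apoe at 3 days also turned to −0.10 by library size, −0.054 by upper quartile, −0.0061 without the filter and −0.018 with the replicate block. The causes were not tested. Deviations of same-numbered libraries from their group means gave 7 correlations from −0.06 to 0.09, 0 over 0.1. In groups of 2 or 3 such deviations are bound to each other, so they cannot show whether same-numbered libraries shared a preparation. The labels do not say. With the replicate block 4 of the 10 genes (not Plcg2) were called between the times, and 301, 424 and 1700 of all genes. The uninjured group of 2 and its distance between libraries limit both comparisons with it.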
